A study of Homo sapiens with 6 samples.

Results

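Ribosome biogenesis and nucleolar genes were followed in MCF10A, a cell line grown from non-malignant human breast epithelium, across 6 plating densities. The genes were 44 symbols listed for this role, and 38 of them had at least 1 probe set annotated with a single gene symbol, out of 19775 genes measured in this way. Of the other 6, NOP56, DKC1, BOP1 and PPAN have probe sets that carry several symbols in the platform annotation, and GNL3 and DDX18 have none listed there. Those 6 were not analysed here. Cultures were started with 50K, 100K, 200K, 400K, 600K or 800K cells (K for kilo) per 35 mm dish and harvested for RNA after 24 h, all in the same medium with horse serum, insulin, EGF, cholera toxin, hydrocortisone and gentamicin. There was 1 array (Affymetrix HG-U133 Plus 2) per density, so no density has a replicate, and the labels give no other treatment or genotype.

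Ribosomes are assembled in the nucleolus. RNA polymerase I transcribes a long precursor of ribosomal RNA, small nucleolar ribonucleoproteins (snoRNPs) guide its chemical modification, the small-subunit processome folds and cuts the part that becomes 18S rRNA, and a separate set of assembly factors builds the 60S subunit. Cells that grow and divide need many new ribosomes, and genes of this pathway are textbook targets of the transcription factor MYC, which binds the E-box with the letters CACGTG.

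The deposited values were linear ratios, in which each probe set was divided by its own 50K value. They give changes with density but no level, so neither the abundance of these transcripts nor the epithelial label could be checked by level. A gene was the mean log2 ratio of its probe sets, and the 50K array is therefore 0 on this scale for every gene. Over all non-control probe sets the median ratio of the other 5 arrays lay between 1.013 and 1.036. Of the markers of other cell types, 1 of 8 fibroblast and 1 of 6 measured leukocyte genes (CD14) rose with density. So did 2 of 7 endothelial genes, and 0 of these 21 fell, when 8.93% of all genes rose and 12.4% fell. CD14 had the steepest rise of the 21, at 0.74 log2 units per doubling of the cells plated. In RNA of whole dishes, a change in every cell and a change in the share of cells that express a gene cannot be told apart.

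The start regions of 7 of these genes are shown: 5 of the 6 with the steepest falls, the methyltransferase gene FBL, and the gene that rose. They run from 250 bases before to 50 bases after the annotated start in RefSeq (build GRCh38.p14), written 5′ to 3′ on the strand of the gene, with each CACGTG in capitals. BYSL, UTP15, UTP4, MRTO4 and UTP20 fell with density, FBL did not pass the test, and NOB1 rose.
BYSL promoter, chr6:41921249-41921548, plus strand: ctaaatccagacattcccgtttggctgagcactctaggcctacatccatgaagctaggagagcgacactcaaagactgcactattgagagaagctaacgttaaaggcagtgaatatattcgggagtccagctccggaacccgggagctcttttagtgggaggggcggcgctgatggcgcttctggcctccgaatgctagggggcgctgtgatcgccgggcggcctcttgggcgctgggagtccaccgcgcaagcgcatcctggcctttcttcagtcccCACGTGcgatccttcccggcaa
UTP15 promoter, chr5:73565493-73565792, plus strand: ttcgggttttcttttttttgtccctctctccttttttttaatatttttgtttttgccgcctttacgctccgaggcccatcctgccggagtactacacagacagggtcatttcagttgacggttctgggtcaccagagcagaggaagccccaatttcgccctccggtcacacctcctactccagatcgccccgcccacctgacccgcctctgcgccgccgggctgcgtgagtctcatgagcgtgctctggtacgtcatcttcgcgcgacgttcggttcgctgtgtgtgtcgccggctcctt
UTP4 promoter, chr16:69132399-69132698, plus strand: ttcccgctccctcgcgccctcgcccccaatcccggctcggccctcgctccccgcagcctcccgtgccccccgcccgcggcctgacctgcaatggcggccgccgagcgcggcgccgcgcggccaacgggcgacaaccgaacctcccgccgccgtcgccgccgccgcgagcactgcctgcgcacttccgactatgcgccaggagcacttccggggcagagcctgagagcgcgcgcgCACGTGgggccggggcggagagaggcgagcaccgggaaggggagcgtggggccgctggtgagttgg
MRTO4 promoter, chr1:19251555-19251854, plus strand: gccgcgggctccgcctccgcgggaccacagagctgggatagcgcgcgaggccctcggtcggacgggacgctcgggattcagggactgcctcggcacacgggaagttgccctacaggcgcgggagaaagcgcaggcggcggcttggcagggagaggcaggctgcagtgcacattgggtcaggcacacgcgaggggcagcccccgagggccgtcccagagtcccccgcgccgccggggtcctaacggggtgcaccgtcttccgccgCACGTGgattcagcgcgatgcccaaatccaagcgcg
UTP20 promoter, chr12:101279855-101280154, plus strand: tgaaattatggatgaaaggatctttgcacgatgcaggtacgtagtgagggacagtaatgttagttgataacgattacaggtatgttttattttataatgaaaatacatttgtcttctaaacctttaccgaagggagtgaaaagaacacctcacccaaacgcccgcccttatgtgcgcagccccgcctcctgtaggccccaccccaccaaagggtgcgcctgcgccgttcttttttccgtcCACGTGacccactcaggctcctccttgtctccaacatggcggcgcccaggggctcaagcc
FBL promoter, chr19:39846330-39846629, minus strand: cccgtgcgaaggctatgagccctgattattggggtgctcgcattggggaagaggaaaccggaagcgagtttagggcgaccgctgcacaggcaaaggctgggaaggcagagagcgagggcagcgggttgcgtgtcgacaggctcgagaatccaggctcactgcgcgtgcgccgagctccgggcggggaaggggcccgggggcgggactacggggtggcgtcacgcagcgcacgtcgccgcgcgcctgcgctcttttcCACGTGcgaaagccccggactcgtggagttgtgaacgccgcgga
NOB1 promoter, chr16:69754877-69755176, minus strand: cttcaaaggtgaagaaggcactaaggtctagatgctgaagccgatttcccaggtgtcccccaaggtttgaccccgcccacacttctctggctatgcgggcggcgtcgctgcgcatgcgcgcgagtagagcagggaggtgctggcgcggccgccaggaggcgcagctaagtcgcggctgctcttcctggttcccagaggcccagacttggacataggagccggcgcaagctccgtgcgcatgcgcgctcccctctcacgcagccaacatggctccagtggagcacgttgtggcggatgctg
In BYSL, MRTO4 and FBL the motif begins 28, 14 and 6 bases after the start, in UTP4 and UTP20 it begins 16 and 10 bases before it, and the windows of UTP15, the second steepest fall, and of NOB1 hold no CACGTG.

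Most of the genes were lower in crowded cultures. The slope of the log2 ratio per doubling of the cells plated, fitted over the 6 arrays with limma, was negative for 37 of the 38 genes. At an adjusted p under 0.05 (Benjamini-Hochberg over all 19775 genes), 21 of the 38 fell, 1 rose and 16 did not pass. Among all genes tested 12.4% fell and 8.93% rose. The median slope of the 38 genes was −0.10 log2 units per doubling, against 0.0045 over all genes. Changes were moderate. At 800K, 4 of the 38 (UTP15, BYSL, MRTO4 and LYAR) were 2-fold or more below their 50K value, as were 2.69% of all genes, and 0 were 2-fold or more above it, as were 2.25% of all genes. At that density the 21 that fell lay between 0.416 and 0.887 of their 50K value. Leaving out the 100K array left 13 genes that fell, when 8.42% of all genes did, and leaving out that at 800K also left 13, when 6.89% of all genes did. With 1 array per density, the residuals mix differences between dishes, technical noise and departure from a line.

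**Figure D1:**
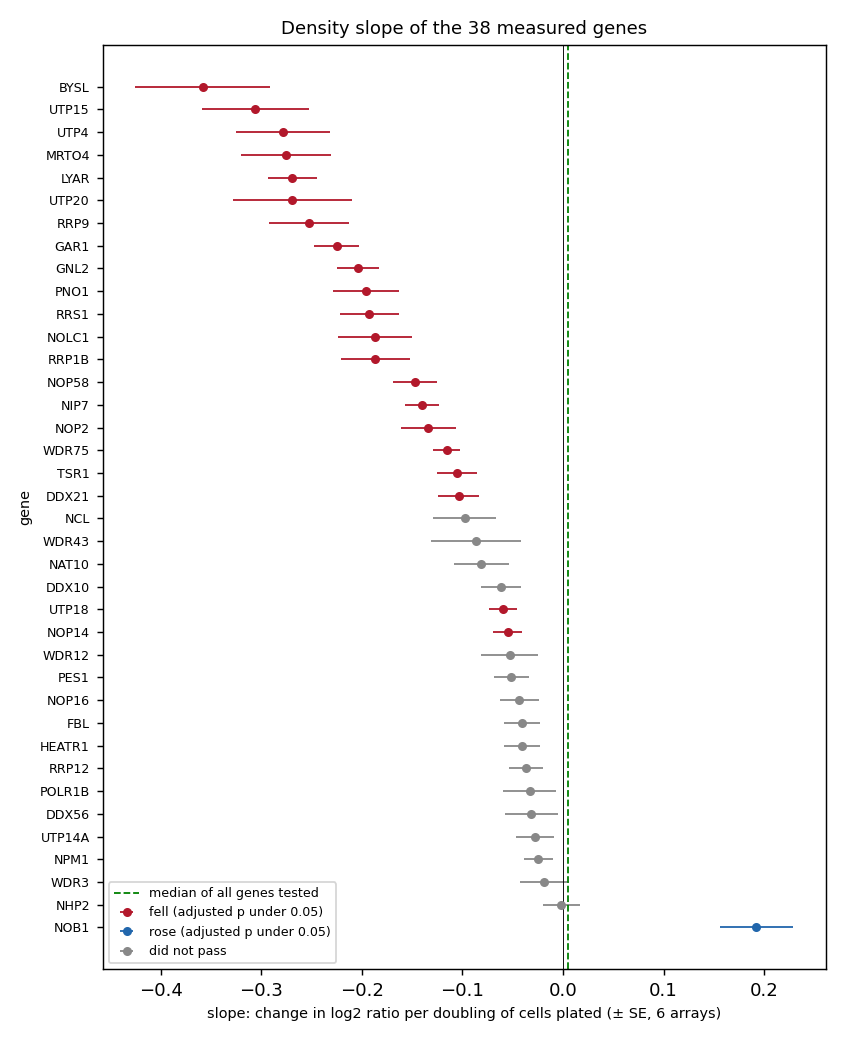
Density slopes of the 38 measured genes, as change in log2 ratio per doubling of the cells plated, with bars of 1 SE from the limma fit over 6 arrays. The 21 red genes fell, the blue gene NOB1 rose and the 16 grey genes did not pass, and the dashed line marks the median of all genes tested (0.0045).

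The genes of the small-subunit processome and of 40S maturation held both the steepest fall and the only rise. Of 18 measured, 10 fell, NOB1 rose and 7 did not pass. BYSL (bystin), which is needed for maturation of the 40S precursor, had log2 ratios of −0.06, −0.02, −0.78, −1.25 and −1.26 at 100K, 200K, 400K, 600K and 800K. It stayed near its 50K value up to 200K and reached a 2.40-fold reduction at 800K, with a slope of −0.36 ± 0.07 (SE, 6 arrays; limma adjusted p = 0.0155). UTP15 and UTP4 belong to the subcomplex that joins the nascent precursor first. UTP15 had log2 ratios of −0.09, −0.10, −0.68, −0.86 and −1.27 over the same densities and UTP4 of 0.05, −0.08, −0.58, −0.90 and −0.99. Both were lower at each of 400K, 600K and 800K than at any of the 3 lower densities, as were 93.0% of all genes that fell. Their slopes were −0.31 ± 0.05 and −0.28 ± 0.05 (limma adjusted p = 0.0126 and 0.0113).

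UTP20, a very large scaffold of the processome, had log2 ratios of 0.07, 0.04, −0.44, −0.92 and −0.93 from 100K to 800K, and a slope of −0.27 ± 0.06 (limma adjusted p = 0.0251). It was slightly above its 50K value at 100K and 200K and dropped after that. The remaining members of this group that fell had smaller slopes: the RNA-binding protein PNO1 (−0.20), WDR75 of the same early subcomplex as UTP15 (−0.12), the GTPase-like TSR1 (−0.11), the helicase DDX21 (−0.10), UTP18 (−0.06) and NOP14 (−0.06). The calls of BYSL, UTP20 and DDX21 were lost without the 100K, 600K or 800K array (limma adjusted p up to 0.0996), that of UTP4 without 800K (0.0504) and that of TSR1 without 100K or 800K (up to 0.0538). TSR1 also lost its call without the probe sets ending in _x_at or _s_at, which are prone to read other transcripts: its slope was then −0.03 (limma adjusted p = 0.749), from 1 of its 4 probe sets. With the 3 highest against the 3 lowest densities, the calls of WDR75, DDX21, UTP18 and NOP14 were lost (limma adjusted p = 0.0504, 0.0584, 0.0684 and 0.0744). UTP18 kept its call with only the 200K array left out and NOP14 with only the 50K array left out, and their adjusted p reached 0.127 and 0.151.

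NOB1, the endonuclease that makes the last cut at the 3′ end of 18S rRNA, had log2 ratios of 0.26, 0.16, 0.41, 0.64 and 0.89 at 100K, 200K, 400K, 600K and 800K. It was above its 50K value on every other array and 1.85-fold above it at 800K, with a slope of 0.19 ± 0.04 (limma adjusted p = 0.0158). PNO1, which works beside NOB1 on the 40S precursor, fell, with log2 ratios of 0.04, −0.06, −0.46, −0.63 and −0.68. NOB1 was measured by 1 probe set, and its call was lost without the 50K, 600K or 800K array (limma adjusted p up to 0.0716).

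Other processome genes did not pass. HEATR1 and WDR43, partners of UTP15 and UTP4 in the early subcomplex, had slopes of −0.04 ± 0.02 and −0.09 ± 0.04, and the rRNA acetyltransferase NAT10 had −0.08 ± 0.03 (limma adjusted p = 0.172, 0.254 and 0.093). WDR3 was −0.01, −0.07, −0.23, −0.05 and −0.01 from 100K to 800K, with its lowest value at 400K. UTP14A was −0.01, 0.07, −0.08, −0.02 and −0.14, with no order by density.

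**Figure D2:**
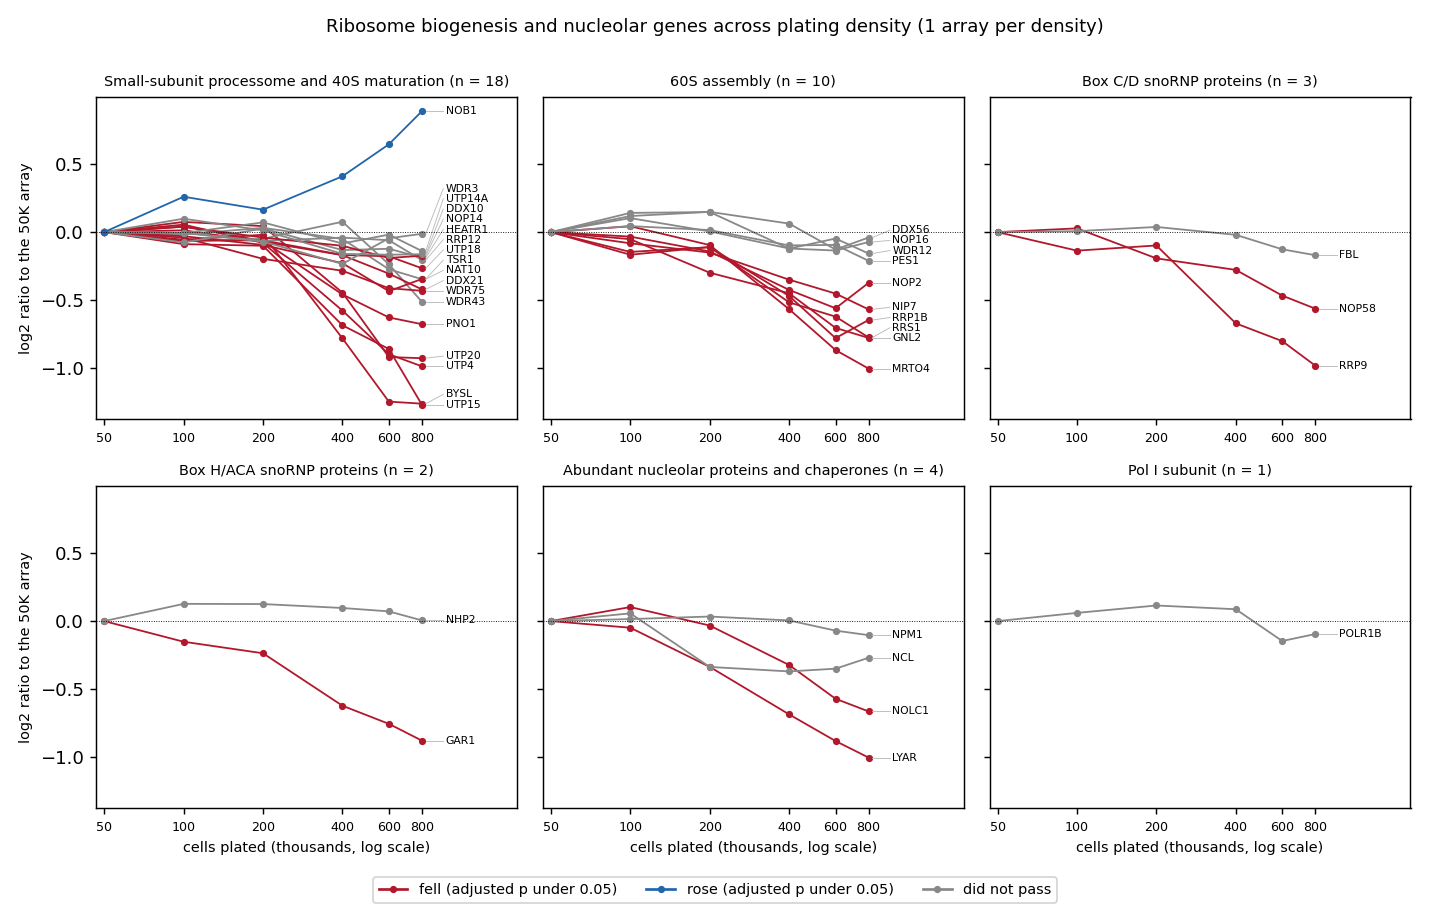
Log2 ratio to the 50K array (y axis) against cells plated, in K, on a log scale (x axis) for the 38 measured genes by role, with 1 array per density and so no error bars. The median of the 21 red genes, which fell, is −0.10 at 200K and −0.45 at 400K, and NOB1 in blue is the only gene that rose.

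Of 10 measured factors of 60S assembly, 6 fell, 0 rose and 4 did not pass. MRTO4, a stand-in for a stalk protein on the 60S precursor, had log2 ratios of 0.04, −0.10, −0.57, −0.87 and −1.003 at 100K, 200K, 400K, 600K and 800K. It was at 0.499 of its 50K value at the highest density (slope −0.28 ± 0.05, limma adjusted p = 0.0104). The GTPase GNL2 had values of −0.05, −0.30, −0.45, −0.70 and −0.78, and RRS1, which helps bring in the 5S ribonucleoprotein, had −0.15, −0.11, −0.52, −0.62 and −0.77. GNL2 declined at every step, while RRS1 changed little between 100K and 200K and then dropped, and their slopes were −0.20 ± 0.02 and −0.19 ± 0.03 (limma adjusted p = 0.00301 and 0.00813).

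RRP1B (−0.19), NIP7 (−0.14) and the rRNA methyltransferase NOP2 (−0.13) also fell. NOP2 and RRP1B were lowest at 600K, and the call of RRP1B was lost without the 50K array (limma adjusted p = 0.0563) and that of NOP2 without 50K or 100K (up to 0.0667). PES1 and WDR12, which form a complex with BOP1, had slopes of −0.05 ± 0.02 and −0.05 ± 0.03, and NOP16 and the helicase DDX56 had −0.04 ± 0.02 and −0.03 ± 0.03. For these 4 genes limma gave an adjusted p from 0.0942 to 0.515.

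Of the snoRNP proteins, RRP9, NOP58 and GAR1 fell and FBL and NHP2 did not pass. Box C/D particles methylate ribosomal RNA through the methyltransferase fibrillarin (FBL), on a scaffold to which NOP58 belongs, and RRP9 is particular to the U3 particle that acts in the processome. RRP9 had log2 ratios of −0.14, −0.10, −0.67, −0.80 and −0.98 from 100K to 800K, with a slope of −0.25 ± 0.04 (limma adjusted p = 0.00911), and NOP58 had a slope of −0.15 ± 0.02 (limma adjusted p = 0.00766). FBL itself had 0.01, 0.04, −0.02, −0.13 and −0.17 and a slope of −0.04 ± 0.02 (limma adjusted p = 0.176). Of the box H/ACA particle, which converts uridine to pseudouridine, GAR1 had −0.15, −0.24, −0.62, −0.75 and −0.88, and a slope of −0.23 ± 0.02 (limma adjusted p = 0.00283). Its partner NHP2 had 0.13, 0.13, 0.10, 0.07 and 0.01, above its 50K value on every array, with a slope of −0.0016 ± 0.02 and a limma adjusted p of 0.973. The difference between partners was not tested, and FBL, RRP9, NOP58, GAR1 and NHP2 were each read by 1 probe set.

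Among the abundant nucleolar proteins, LYAR and NOLC1 fell and NCL and NPM1 did not pass. LYAR, a zinc-finger protein of the nucleolus, had log2 ratios of −0.05, −0.34, −0.69, −0.88 and −1.002 from 100K to 800K, a decline at every step, and the smallest adjusted p of the 38 genes (slope −0.27 ± 0.02, limma adjusted p = 0.00215). NOLC1, a chaperone of snoRNPs, had 0.10, −0.03, −0.32, −0.57 and −0.66 and a slope of −0.19 ± 0.04 (limma adjusted p = 0.0178, and up to 0.0752 without the 100K, 600K or 800K array). NCL (nucleolin) had 0.06, −0.34, −0.37, −0.35 and −0.27, lowest at 400K, with a slope of −0.10 ± 0.03 (limma adjusted p = 0.0816). These NCL values are means of 2 probe sets with unlike courses. NPM1 (nucleophosmin), a chaperone of the granular outer zone, had 0.01, 0.03, 0.00, −0.07 and −0.10 (slope −0.02 ± 0.01, limma adjusted p = 0.34). POLR1B, the second largest subunit of RNA polymerase I, had 0.06, 0.11, 0.09, −0.15 and −0.10, with a slope of −0.03 ± 0.03 (limma adjusted p = 0.487).

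Most of the decrease lay above 200K. The range can be divided into 2 spans of 2 doublings each that share the 200K array. From 200K to 800K the median change of the 38 genes was −0.28 log2 units, and from 50K to 200K it was −0.06. Over all genes the medians were −0.0018 and 0.03. The change was more negative in the upper span in 35 of the 38 genes, against 60.8% of all genes. Among the 21 that fell this held for 21, and among all genes that fell for 76.3%. From 200K to 400K, 35 of 38 were lower, with a median step of −0.15, when 60.9% of all genes were lower with a median step of −0.01. For 15 of the 21 genes that fell (38.7% of all genes that fell), this was the largest drop of any step between neighbouring densities. The steps differ in width, at 1 doubling from 200K to 400K, 0.585 from 400K to 600K and 0.415 from 600K to 800K. Per doubling, the steepest step was 200K to 400K in 6 of the 21 (19.1% of all genes that fell), 400K to 600K in 11 (34.0%) and 600K to 800K in 4 (31.6%). At each of 400K, 600K and 800K, 29 of the 38 genes were lower than at any of 50K, 100K and 200K, and so were 17.9% of all genes. Among the 21 that fell this held for 21, and among all genes that fell for 93.0%.

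A quadratic term in log2 of the cells plated was also fitted. It was negative in 35 of the 38 genes and in 12190 of the 19775. Only for a gene that declines does a negative term mean a steeper decline at high density. None of the 19775 genes passed at an adjusted p under 0.05 in limma, while 12 of the 38 had an unadjusted p under 0.05, against 12.6% of all genes. The smallest p among the 38 belonged to MRTO4 (0.00237) and NOLC1 (0.00313), both with a limma adjusted p from 0.165 to 0.17.

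**Figure D3:**
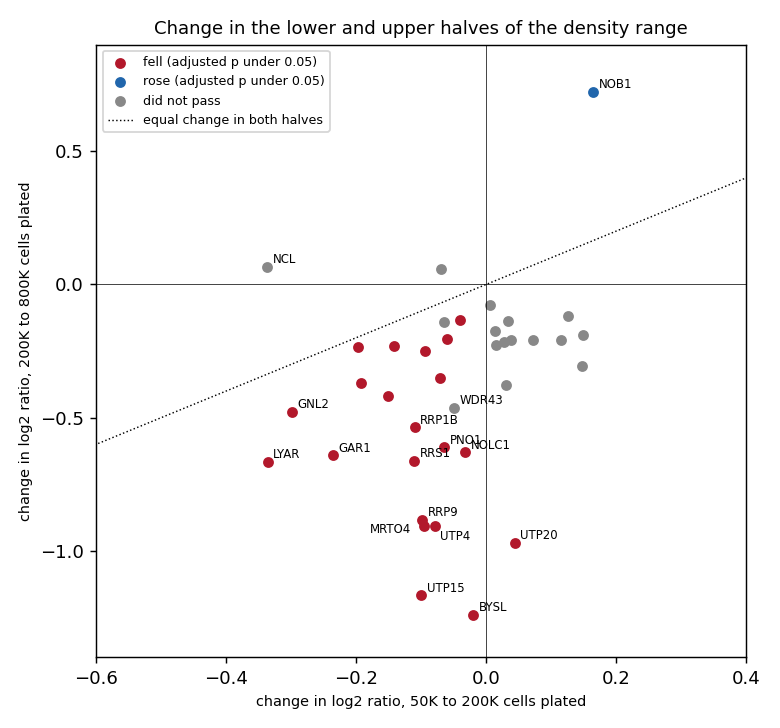
Change in log2 ratio from 200K to 800K (y axis) against that from 50K to 200K (x axis) for the 38 genes, 1 point per gene, with unequal axis scales and a dotted line of equal change. Of the points, 35 lie below the line and NOB1 is above it at the top right. NCL lies to the left, and its value is the mean of 2 probe sets with unlike courses.

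Probe sets of a gene did not always move alike. The 38 genes were read by 77 probe sets, of which 37 fell, 1 rose and 39 did not pass when each of 54613 non-control probe sets was tested alone. Over all these probe sets 7.96% fell and 5.94% rose. In 15 of the 23 genes with several probe sets, all slopes had 1 sign. Both probe sets of LYAR (slopes −0.27 and −0.26), of UTP4 (−0.29 and −0.26) and of MRTO4 (−0.30 and −0.25) fell, as did all 3 of NOLC1. Both of UTP15 fell too, with unlike slopes of −0.40 and −0.21. At 800K the probe sets of UTP15 were at 0.305 and 0.566 of their 50K value. Those of MRTO4 were at 0.469 and 0.532, and those of LYAR at 0.513 and 0.485. The 2-fold falls of these genes are thus those of the means.

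Of the 16 genes that did not pass, 4 had probe sets that fell on their own. RRP12, a factor of 40S export, had 2 probe sets with slopes of −0.23 and −0.22 (limma adjusted p = 0.02 and 0.033), which were at 0.501 and 0.476 of their 50K value at 800K, and 3 others with slopes of 0.02, 0.07 and 0.17 that did not pass. The mean over its 5 probe sets was −0.04 ± 0.02. DDX56 had 1 probe set with a slope of −0.16 (limma adjusted p = 0.0281) and 1 with 0.10 (0.0642), DDX10 1 with −0.13 (0.0277) and 1 with 0.01, and HEATR1 2 of 5 with −0.11. For PNO1, which fell as a gene, 2 probe sets had slopes of −0.30 and −0.28 and the third −0.01. UTP18 also fell as a gene, with 1 of its 2 probe sets not passed (slope −0.01, limma adjusted p = 0.694). Of the 4 probe sets of TSR1, 2 fell and the others had slopes of −0.03 and −0.01. NOP14 fell as a gene, but its 1 probe set did not pass among all probe sets (limma adjusted p = 0.0679). The 2 probe sets of NCL had unlike courses: one was at −0.63 at 200K and −0.16 at 800K, and the other at −0.04 and −0.38. Which transcripts these probe sets read was not tested.

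**Figure D4:**
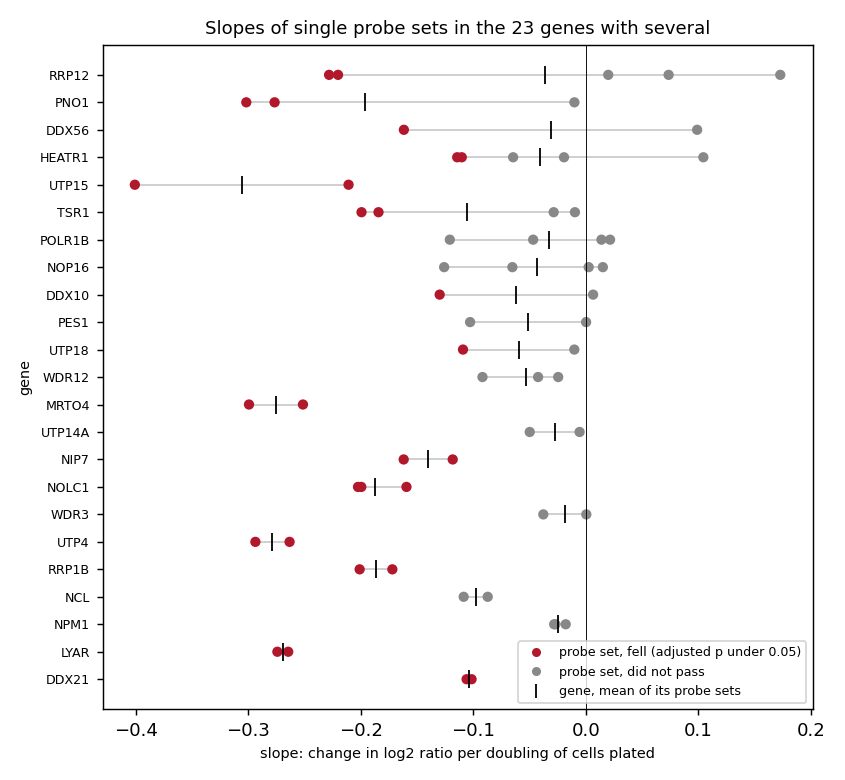
Slopes of single probe sets (points) in the 23 genes with several, ordered by the spread between the lowest and the highest, with a black tick at the mean that stands for the gene. RRP12 has the widest spread, from −0.23 to 0.17, while LYAR and DDX21 have probe sets that nearly coincide.

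Other factors of the pathway were taken as 5 further lists, to be read beside the 12.4% of all genes that fell and the 8.93% that rose. Of 38 further small-subunit factors, 24 fell, 1 rose and 13 did not pass, with a median slope of −0.09. TSR2, which in yeast escorts a protein of the 40S subunit, and RRP7A both had slopes of −0.28 ± 0.04 (limma adjusted p = 0.00891 and 0.0091), and the kinase RIOK3, which acts on the 40S precursor, rose (0.14 ± 0.03, limma adjusted p = 0.0245). Of 48 further large-subunit factors, 24 fell, 2 rose and 22 did not pass. The methyltransferase FTSJ3 and URB2 had slopes of −0.32 ± 0.04 each, and RSL24D1, whose yeast counterpart holds the place of a ribosomal protein on the 60S precursor, and RSL1D1 rose (0.21 ± 0.04 and 0.09 ± 0.01).

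For RNA polymerase I and its factors, 8 of 16 genes fell, 1 rose and 7 did not pass. POLR1G, a subunit of the polymerase, had log2 ratios of −0.04, −0.31, −0.76, −1.12 and −1.34 from 100K to 800K and reached a 2.54-fold reduction at 800K (slope −0.35 ± 0.04, limma adjusted p = 0.00451). TAF1A of its promoter factor had a slope of −0.20 ± 0.03, and POLR1D, shared with RNA polymerase III, rose (0.14 ± 0.03). Of 11 further snoRNP factors 4 fell, led by the assembly factors NUFIP1 and NAF1 (both −0.16), and 7 did not pass. Of 13 measured genes of the RNA exosome, which trims rRNA precursors, 3 fell (EXOSC3 −0.25, EXOSC2 −0.22 and EXOSC9 −0.21) and 10 did not pass. The median slope of the 13 was −0.04. Together these 5 lists held 126 measured genes, of which 63 fell and 4 rose, when 12.4% of all genes fell and 8.93% rose.

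The genes for the proteins of the ribosome itself had higher medians. Of 78 listed cytosolic ribosomal protein genes, 52 were measured. None of the 52 fell in limma, 7 rose and 45 did not pass, when 12.4% of all genes fell and 8.93% rose. Their median slope was 0.03 and the highest was 0.17 (RPL37). The median log2 ratio at 800K was −0.36 for the 38 ribosome biogenesis and nucleolar genes and 0.10 for the cytosolic ribosomal proteins. The lowest slope among the 52 was −0.06. Genes of DNA replication, which also mark dividing cells, had lower medians: 27 of 32 fell, 25 were at or under a ratio of 0.5 at 800K, and the median log2 ratio was −1.36 at 800K and −0.44 at 400K. The differences between these lists were not tested.

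**Figure D5:**
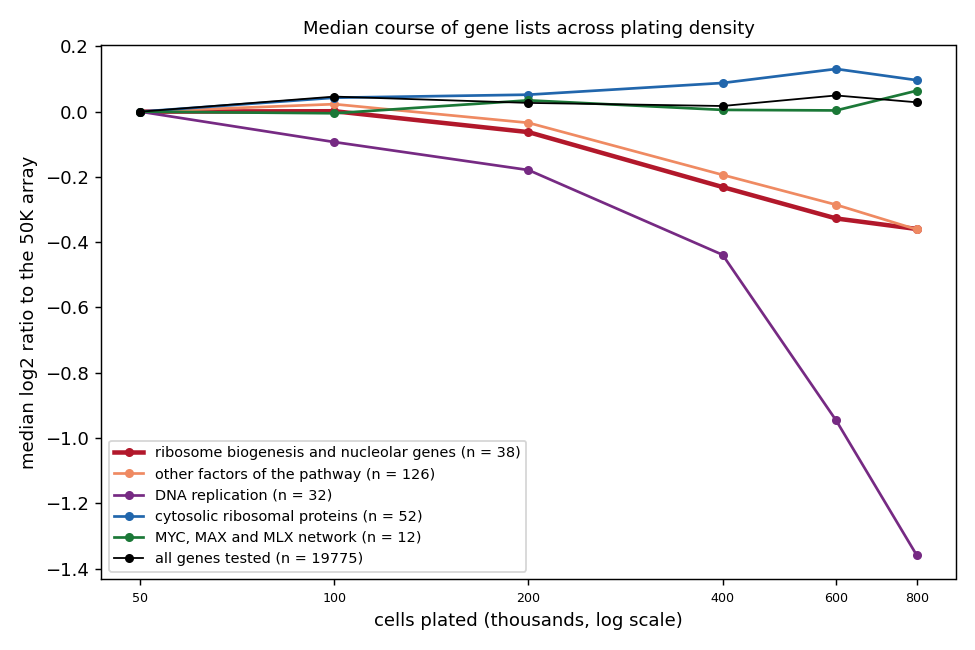
Median log2 ratio to the 50K array (y axis) by cells plated, in K, on a log scale (x axis) for the 38 ribosome biogenesis and nucleolar genes, other gene lists and all genes tested, with the number of genes in the legend. The 38 genes and the other factors of the pathway both reach −0.36 at 800K, between DNA replication at −1.36 and the cytosolic ribosomal proteins at 0.10.

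MYC did not pass. Its log2 ratios were 0.11, 0.28, 0.13, 0.21 and 0.31 at 100K, 200K, 400K, 600K and 800K, above its 50K value on each array, with a slope of 0.06 ± 0.02 (limma adjusted p = 0.136). Its partner MAX had a slope of −0.05 ± 0.02 (limma adjusted p = 0.169). MXI1 and MNT, which bind MAX in place of MYC and repress genes with an E-box, rose. MXI1 had 0.27, 0.31, 0.74, 1.09 and 1.24 and was 2.37-fold above its 50K value at 800K (slope 0.31 ± 0.04, limma adjusted p = 0.00403), and MNT had 0.07, 0.18, 0.42, 0.57 and 0.59 (slope 0.16 ± 0.02, limma adjusted p = 0.00321). Of the 12 measured genes of this network, 2 rose (MXI1 and MNT), 1 fell (MLXIP) and 9 did not pass, when 8.93% of all genes rose and 12.4% fell. The median slope of the 12 was 0.00039.

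The E-box was common at the starts of the ribosome biogenesis and nucleolar genes. RefSeq start regions were available for 37 of the 44 genes, and CACGTG, which reads the same on both strands, was present in 19 of them (51.4%), against 10.9% of 15384 genes tested and 7.26% of all 35116 regions. Of its 20 occurrences at these genes, 17 began within 40 bases of the annotated start, against 28.3% of the occurrences at all genes tested. The median share of G and C was 63.7% in these start regions and 62.7% over all genes tested. Of the 38 measured genes, 33 had a start region, among them 17 of the 21 that fell, and the motif is unknown for the rest. Among 18 measured genes with the motif, 13 fell, with slopes from −0.36 to −0.03 and a median of −0.17. Among 15 without it, 4 fell (UTP15, WDR75, TSR1 and NIP7), with slopes from −0.31 to 0.19 and a median of −0.04. Over all genes tested, 17.9% of those with CACGTG fell and 12.7% of those without it.

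The motif and the slope did not always go together: FBL holds CACGTG and had a slope of −0.04, while the UTP15 window has none and the gene had a slope of −0.31. Of the other motifs searched on both strands, CACGCG was found in 29.7% of the 37 genes, against 18.5% of all genes tested, and CCGGAAG, letters read by ETS factors, in 35.1% against 16.6%. CACGCG and CACGTG share letters but cannot be the same 6 bases. Of the further lists, CACGTG was present in 12 of 34 small-subunit and 12 of 46 large-subunit factors with a start region. For RNA polymerase I and its factors it was present in 1 of 13 genes, with 1 of 8 snoRNP factors and 1 of 12 RNA exosome genes. It was also in 3 of 29 DNA replication genes and 4 of 62 cytosolic ribosomal protein genes. A match is a description of letters, and binding was not measured.

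The array also carries control probe sets named for ribosomal RNA. Whether they follow the amount of ribosomal RNA in the cells was not tested. The 3 probe sets for 18S rRNA lay between 0.493 and 0.735 of their 50K value on each of the other 5 arrays, with no order by density, and the 3 for 28S rRNA between 0.505 and 1.35. The 24 probe sets for spiked poly-A transcripts had a median ratio of 0.801 and a range from 0.39 to 1.51, while the 18 hybridisation controls had a median of 1.03. How these controls bear on the 50K array as the common divisor was not tested, but dividing by it leaves slopes unchanged, and with the 50K array left out of the fit 19 of the 38 genes fell, when 8.55% of all genes did, and the median slope was −0.12. The ratio of the 3′ to the 5′ probe set, a sign of RNA integrity, stayed between 0.968 and 1.051 for GAPDH relative to 50K, and for ACTB it was 0.983, 1.026, 1.122, 1.164 and 1.234 from 100K to 800K. Its part in the declines was not tested.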

How the data were processed

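Biotin-labelled RNA, made from 200 ng of total RNA, was read on the arrays, per the labels' protocols. RMA is the only tool in the submitters' processing notes, and they give no version. The deposited values are linear ratios to the 50K array: all 54675 values of that column equal 1 within 1e-06. How the ratio was made is not stated there.

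Control probe sets (62) were left out of the gene values, 41091 probe sets with 1 symbol in the platform annotation gave 19775 genes, and 77 probe sets read 38 of the 44 genes. The log2 of the ratios was tested in R 4.3.3 by limma 3.58.1 (moderated tests from lmFit and eBayes, two-sided, Benjamini-Hochberg over all genes, threshold 0.05) as a slope on log2 cell number (4 residual degrees of freedom) and as a quadratic term (3). Errors after ± are standard errors. No filter on low values was possible without levels. Steps between densities carry no test. The number of arrays limits the precision.

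The fits were tested on simulated data with independent noise in each value, so differences between dishes that many genes share were not imitated.

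All 6 values are given for the 12 genes with the largest slopes past the threshold, any that rose, the 4 with the smallest slopes, the 2 with the smallest p for curvature, NCL, NPM1 and FBL. Of other lists, up to 2 genes per direction and MYC are named. POLR1B, MAX, EXOSC9, the genes of the probe set comparison and the E-box exceptions were picked for naming with their values in view. The genes and lists were chosen with earlier results of these data known. Alternatives were other probe set summaries, centring, other density scales, 3 against 3 densities, robust variances and leaving out each array. Dividing steps by their doublings was added after seeing the data.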

Additional observations from a re-analysis of the deposited data

How the results depend on the processing

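The median slope of the 38 genes kept its sign under all 13 alternatives, from −0.12 (without the 50K array) to −0.09, with other density scales brought to the spread of log2 cells. The number that fell lay between 16 and 23 under the 7 alternatives that kept all arrays: 16 of 31 measured genes without probe sets ending in _x_at or _s_at (8.81% of all genes), 17 with the 3 highest against the 3 lowest densities (6.83%), and 23 with arrays centred on their medians (12.5%). With 1 array left out it lay between 13 and 20, when 6.89% to 11.5% of all genes fell. The number that rose was 0 or 1 with 1 array left out and 0 with the 3 highest against the 3 lowest densities. Of the 22 genes called, 11 kept their call with each array left out in turn, and 9 of these kept it under each alternative that could measure them (NOP58 and WDR75 lost it with 3 against 3 densities, as did DDX21, UTP18, NOP14 and NOB1 of the others). Slopes that changed sign belonged to genes that did not pass: NHP2 (between −0.0356 and 0.0139 with 1 array left out), WDR3 (0.00034), POLR1B (0.0215) and RRP12 (0.0466) without the _x_at and _s_at probe sets, and RRP12 (0.0263) with the median of its probe sets. The cause was not tested. No paired analysis was possible because each density has 1 array. Signal over background is unknown.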

Other observations

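UTP4, NIP7 and NOB1 are all annotated to chromosome 16 in RefSeq. At 800K their log2 ratios to the 50K array were −0.99, −0.57 and 0.89. UTP4 and NIP7 fell with density, and NOB1 was the single gene of the 38 that rose.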
